A study of Rattus norvegicus with 5 samples.

Results

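The genes described here are 41 rat genes of skeletal muscle, namely the contractile proteins of fast and slow fibres, proteins that fibres of both kinds share, calcium handling proteins, muscle enzymes, a pair of ubiquitin ligases and a pair of myogenic transcription factors. A gene was measured where the RefSeq accession of an array probe mapped to it, and its brightest probe over the 5 arrays stood for it. This gave 35 of the 41 genes among 15442 named genes on the array. Mybpc2, Ldb3, Ttn, Neb, Xirp1 and Ryr1 had no probe matched in this way and are not analysed here.

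The samples came from xenografts of the rat glioma line C6-L in BALB/c nu/nu nude mice aged 6 weeks. At 6 weeks after γ-irradiation 3 metastatic nodules of the lung and the irradiated primary were taken, 1 sample each. The non-irradiated primary was taken at 6 weeks after the glioma cells were grafted. The series was designed to compare the nodules with the irradiated primary, and the irradiated with the non-irradiated primary. The labels give neither the body site of the primaries nor whether the nodules came from separate animals, so a p-value here measures the spread between these samples and nothing wider. Each sample was read on 1 single-colour Agilent rat array. Rat probes can also read RNA of the mouse host, and on these arrays RNA of the tumour and of the host cannot be told apart.

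Skeletal muscle shortens when myosin heads of the thick filament pull on actin of the thin filament. Calcium released from the sarcoplasmic reticulum binds troponin C on the thin filament and so permits that contact. Fast and slow fibres build the same machine from different isoforms of myosin, troponin and calcium pump, with glycolytic enzymes abundant in fast fibres and the oxygen carrier myoglobin in slow ones. Glioma cells are of glial character, and these genes are not among those that define such cells.

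A level below is the log2 signal of a probe minus the 75th percentile of its array, so levels of 1 gene may be compared between samples, but not those of different genes. Per array, 69.8 to 73.5% of gene spots exceeded background well and 0 were saturated. The arrays correlated with Pearson's r of 0.985 to 0.992 between nodules, and they shared 1 slide. The nodules filled a separate slide row, so an effect of row and one of group cannot be told apart. Of 14 genes measured from a list of glial markers, 10 were well above background on all 5 arrays, among them Vim, Nes, Cspg4 and S100b. Of the same list Gfap and Olig2 were not on any array, and Slc1a3 was not in the irradiated primary. Whether other cells account for these signals was not tested. The library labelled lung nodule 3 stood apart in several lung genes, though not in all. Sftpd, a surfactant protein of the alveoli, read 4.46, 2.27 and -6.00 in nodules 1, 2 and 3, against -6.31 in the irradiated and -5.92 in the non-irradiated primary. Scgb1a1, the secretoglobin of airway club cells, read 4.11, 3.09 and -5.27 in the nodules, against -5.41 in the irradiated and -5.27 in the non-irradiated primary. Ager, also a lung marker, read 1.88, -0.18 and -3.16 in nodules 1, 2 and 3, against -3.46 in the irradiated and -1.68 in the non-irradiated primary. Sftpc, another, did not set nodule 3 apart from nodule 2. It read -1.04, -3.65 and -3.62 in the nodules, against -2.88 in the irradiated and -1.89 in the non-irradiated primary. The member counts over nodules are also given without nodule 3, a choice made after the data were seen.

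The region just before the gene start is shown for a few members that were low together in the nodules, with short motifs that muscle factors are known to bind. The motifs were the E-box CANNTG, bound by myogenic factors, its variant CAGCTG, the MEF2 site, the CArG box of serum response factor, and TATAAA. All were sought on both strands in the 250 bases before each start in RefSeq, build GRCr8, where 34 of the 41 members matched with 37 starts. TATAAA can overlap a MEF2 site. The lines below run 5′ to 3′, with E-boxes, MEF2 sites and CArG boxes in capitals. They show the fast myosin heavy chain Myh4 and fast light chain Myl11, the actin Acta1 and creatine kinase Ckm of all fibres, the slow troponin Tnni1, and myoglobin, Mb, which differed among the nodules.
Myh4 promoter, chr10:52421898-52422147, plus strand: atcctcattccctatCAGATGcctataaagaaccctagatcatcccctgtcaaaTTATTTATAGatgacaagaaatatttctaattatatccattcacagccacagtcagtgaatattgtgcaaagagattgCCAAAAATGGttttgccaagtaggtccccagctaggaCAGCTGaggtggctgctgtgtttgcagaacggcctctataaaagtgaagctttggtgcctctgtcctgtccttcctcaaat
Myl11 promoter, chr1:191260039-191260288, plus strand: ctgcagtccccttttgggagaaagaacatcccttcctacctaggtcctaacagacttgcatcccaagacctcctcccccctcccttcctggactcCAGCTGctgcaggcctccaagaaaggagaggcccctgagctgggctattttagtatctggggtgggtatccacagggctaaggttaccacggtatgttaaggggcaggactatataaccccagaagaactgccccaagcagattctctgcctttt
Acta1 promoter, chr19:68784195-68784444, minus strand: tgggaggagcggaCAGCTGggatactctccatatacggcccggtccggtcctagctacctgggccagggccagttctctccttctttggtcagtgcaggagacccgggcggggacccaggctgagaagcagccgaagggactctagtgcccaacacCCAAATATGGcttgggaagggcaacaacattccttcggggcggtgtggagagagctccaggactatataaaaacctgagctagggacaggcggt
Ckm promoter, chr1:88189211-88189460, plus strand: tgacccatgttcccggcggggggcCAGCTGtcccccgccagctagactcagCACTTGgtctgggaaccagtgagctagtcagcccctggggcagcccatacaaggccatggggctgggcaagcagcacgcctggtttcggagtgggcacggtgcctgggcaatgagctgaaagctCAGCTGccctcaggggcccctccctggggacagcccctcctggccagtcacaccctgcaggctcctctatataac
Tnni1 promoter, chr13:49781279-49781528, plus strand: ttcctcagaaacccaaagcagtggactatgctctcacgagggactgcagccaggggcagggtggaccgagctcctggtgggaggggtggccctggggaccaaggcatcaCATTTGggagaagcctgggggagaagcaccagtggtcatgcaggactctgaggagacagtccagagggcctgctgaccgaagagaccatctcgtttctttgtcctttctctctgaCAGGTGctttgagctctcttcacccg
Mb promoter, chr7:110647743-110647992, minus strand: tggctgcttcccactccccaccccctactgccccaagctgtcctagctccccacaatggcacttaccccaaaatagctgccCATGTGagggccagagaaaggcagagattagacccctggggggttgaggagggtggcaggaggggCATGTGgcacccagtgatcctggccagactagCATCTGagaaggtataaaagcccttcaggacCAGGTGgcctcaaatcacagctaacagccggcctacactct
CAGCTG stood in 13 of the 37 member promoters (35.1%), against 11.97% of all 33469 promoters of that length. The MEF2 site stood in 9 of the 37 (24.3%), against 2.96% of all promoters. These belong to 8 genes, among them Ttn and Xirp1, which were not measured, and Myh1, which was not tested. The CArG box stood in 3 (8.11%), namely those of Myh4, Acta1 and Ldb3, against 1.497% of all promoters. TATAAA stood in 14 (37.8%), against 12.9%, and CANNTG in 31 (83.8%), against 65.5%. These matches describe the letters of the windows, and no binding was measured.

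All 13 fast fibre genes measured read lower in each of the 3 nodules than in either primary. Of all features tested, 31.8% had every nodule below the irradiated primary and 36.8% below the non-irradiated one. Of the 13 genes, 10 fell against the irradiated primary, and Myl1 and Atp2a1 did not pass the test (limma, adjusted p under 0.05 over 18903 features). Over the whole array 2.77% of features were lower and 0.905% higher by that test. Against the non-irradiated primary 10 fast fibre genes again fell, and again Myl1 and Atp2a1 did not pass, with 8.85% of all features lower and 9.74% higher. The remaining gene, the fast heavy chain Myh1, was not well above background on any array and was not tested, its levels lying between -8.89 and -8.12. The median difference over the fast fibre genes was -5.64 against the irradiated and -2.64 against the non-irradiated primary, where all features tested had medians of 0.03 and 0.04. Both class medians were the same with Myh4 and Myh2 set to the bounds given next. In bulk tissue fewer cells of a type and less RNA per cell cannot be told apart.

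The motor proteins of fast fibres were low in all nodules. Myh4, the heavy chain of the fastest fibres, whose promoter above holds an E-box CAGCTG, a MEF2 site and a CArG box, read -6.29, -7.22 and -6.98 in nodules 1, 2 and 3, against 2.45 in the irradiated and -1.49 in the non-irradiated primary. No nodule was well above background for Myh4, so the nodules were at least 522-fold lower than the irradiated primary (limma adjusted p = 0.00641) and at least 34.1-fold lower than the non-irradiated one (adjusted p = 0.0100). Such a bound sets the brighter array against the nodules raised, where the probe lay under it, to the lowest level well above background on each array. A probe above that level can still fail the flag, as Myh4 did in nodule 1, where that level was -6.46. The bounds are thus not strict minima and hold on this scale only. In other settings the log2 differences from the irradiated primary were as small as -6.20 for Myh4, -3.98 for Myh2 and -4.07 for Mybpc1, smaller than their bounds. Myh2, the heavy chain of fast oxidative fibres, read between -8.77 and -8.57 in the nodules, against -0.49 in the irradiated and -1.74 in the non-irradiated primary. It too was not well above background in any nodule, and the nodules were at least 70.9-fold lower than the irradiated primary (limma adjusted p = 0.0044) and at least 29.7-fold lower than the non-irradiated primary (adjusted p = 0.00761). An adjusted p beside a bound tests the measured difference, not the bound, and rests on the spread of nodule readings near background. Myh4 and Myh2, and Mybpc1, Myod1 and Sypl2 below, entered the test only because a primary was bright. The same holds for Myl1, Actn3, Atp2a1, Tnni1, Car3, Actn2 and Klhl41, well above background in some nodules but not all. In the other muscle lists it also holds for Myh8, Ppp1r27, Cacng1, Trdn, Xirp2 and Smpx. A dimmer probe of Myh2 lay between -8.61 and -8.21 in the nodules, against -2.26 in the irradiated and -3.79 in the non-irradiated primary. Heavy chain genes resemble each other in sequence, and whether a probe reads more than 1 of them was not tested.

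The light chains sit on the neck of the myosin head. Myl11, the fast regulatory light chain, read -3.51, -3.05 and -2.96 in nodules 1, 2 and 3, against 5.06 in the irradiated and 2.90 in the non-irradiated primary. Its groups did not overlap, and it fell by 8.24 against the irradiated primary (SE 0.25, limma adjusted p = 0.00394) and fell by 6.07 against the non-irradiated one (SE 0.25, adjusted p = 0.00761). Myl1, the fast essential light chain, read -8.48, -8.24 and -3.68 in the nodules, against 2.65 in the irradiated and -0.46 in the non-irradiated primary. Only nodule 3 was well above background for it, and all nodules lay below both primaries. With a nodule SD of 2.70 the difference of -9.45 from the irradiated primary did not pass (SE 2.03, adjusted p = 0.0876). It passed with normexp background correction (adjusted p = 0.0149), without nodule 1 (0.0156) and without nodule 3 (0.0248), where neither nodule left was well above background, and not without nodule 2 (0.226).

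Fast troponins of the thin filament split into tight and scattered members. Tnni2, the fast inhibitory subunit, read 1.86, 1.94 and 1.94 in the nodules, against 5.32 in the irradiated and 3.49 in the non-irradiated primary. It fell by 3.41 (SE 0.11, limma adjusted p = 0.00394) and fell by 1.58 (SE 0.11, adjusted p = 0.00909) against these primaries. Tnnt3, the fast subunit that binds tropomyosin, lay between -0.18 and -0.0011 in the nodules, against 4.20 in the irradiated and 2.22 in the non-irradiated primary, and fell, with differences of -4.27 and -2.29. Both were well above background in every nodule, and the nodules lay close together. Tnnc2, the fast calcium-binding subunit, spread more, with -3.15, -0.53 and -1.44 in nodules 1, 2 and 3, against 4.67 in the irradiated and 2.57 in the non-irradiated primary. It fell by 6.38, close to the threshold (SE 1.00, limma adjusted p = 0.0484), and its adjusted p was 0.0838 without nodule 2, 0.115 without nodule 3 and up to 0.0878 under other scalings, filters or prior variance. Against the non-irradiated primary it fell by 4.27 (SE 1.00, adjusted p = 0.0489), which was likewise lost without nodule 2 (0.0731) or nodule 3 (0.104), and adjusted p was 0.05002 to 0.0770 in 5 other settings.

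At the Z-disc, which anchors thin filaments, Actn3 and Myoz1 were almost the same in the 3 nodules. Myoz1, a fast fibre protein that binds calcineurin, read -5.69, -5.77 and -5.70 in the nodules, against 0.69 in the irradiated and -1.62 in the non-irradiated primary. It fell by 6.41 against the irradiated primary (SE 0.21, limma adjusted p = 0.00394) and fell by 4.10 against the non-irradiated primary (SE 0.21, adjusted p = 0.00761). Actn3, the fast fibre actinin, read between -6.25 and -6.14 in the nodules, of which 2 were well above background, against -2.58 in the irradiated and -3.54 in the non-irradiated primary, and fell, with differences of -3.6 and -2.64.

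Calcium handling genes of fast fibres held the smallest fall of the class, that of Casq1, and, after Myh4, its largest gap between the primaries, that of Pvalb. Pvalb, the soluble calcium buffer parvalbumin, read -5.75, -5.59 and -5.27 in nodules 1, 2 and 3, against 0.11 in the irradiated and -3.80 in the non-irradiated primary. It fell by 5.64 against the irradiated primary (SE 0.29, limma adjusted p = 0.0066) and fell by 1.74 against the non-irradiated one (SE 0.29, adjusted p = 0.0244). Casq1, the calcium store protein of the sarcoplasmic reticulum, read between -0.18 and -0.12 in the nodules, against 1.99 in the irradiated and 0.77 in the non-irradiated primary, and fell, with differences of -2.13 and -0.91. Atp2a1, the fast calcium pump, read -6.16, -5.50 and -4.94 in the nodules, against -4.05 in the irradiated and -3.71 in the non-irradiated primary. All nodules lay under both primaries for Atp2a1, but the difference of -1.48 from the irradiated primary did not pass (SE 0.52, adjusted p = 0.20).

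The fast fibre calls depended on nodule 2, as did those of the whole array, whose counts are given at the end. The fast fibre median differences were -5.62 from the irradiated and -2.66 from the non-irradiated primary, so they hardly moved without nodule 2. Without it, Myh4, Myh2, Myl11, Tnnt3, Tnni2 and Myoz1 kept their call against the irradiated primary (adjusted p = 0.04997), while Tnnc2, Actn3, Pvalb and Casq1 had adjusted p from 0.0549 to 0.0838. Against the non-irradiated primary the 10 fast fibre calls then had adjusted p from 0.0542 to 0.0981. Without nodule 3, Tnnc2, Actn3, Pvalb and Casq1 lost that second call, with adjusted p from 0.0520 to 0.104.

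**Figure D1:**
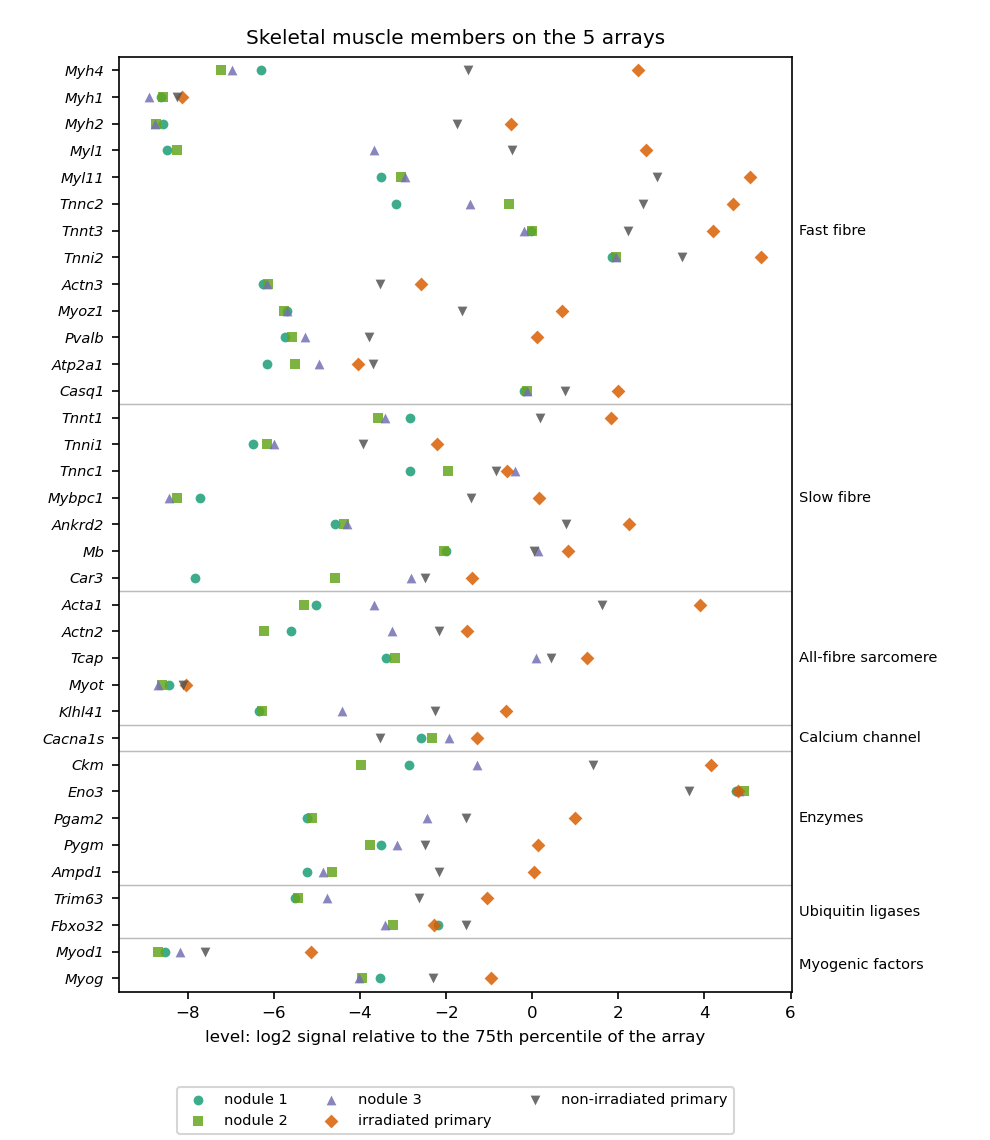
Level of each of the 35 measured genes (log2 signal relative to the 75th percentile of the array, horizontal) in nodules 1 to 3, the irradiated primary and the non-irradiated primary, 1 point per array, with genes grouped by class and dim readings drawn at their measured value. The irradiated primary was highest of the 5 arrays for 31 of the 35 genes, and Myh1 and Myot were near the bottom of the scale on every array.

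Slow fibre genes divided into 4 that fell in the nodules and 3 that did not pass. Of 7 measured, Tnnt1, Tnni1, Mybpc1 and Ankrd2 fell against each primary, and Tnnc1, Mb and Car3 did not pass against either. Over the whole array 2.77% of features fell against the irradiated and 8.85% against the non-irradiated primary. The median difference over the slow fibre genes was -3.99 against the irradiated and -2.60 against the non-irradiated primary. Without nodule 3 these medians were -4.81 and -3.39.

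Among the 4 that fell, Tnnt1, the slow troponin subunit that binds tropomyosin, read -2.83, -3.59 and -3.42 in nodules 1, 2 and 3, against 1.83 in the irradiated and 0.18 in the non-irradiated primary. It fell by 5.11 against the irradiated primary (SE 0.33, limma adjusted p = 0.00951) and fell by 3.47 against the non-irradiated primary (SE 0.33, adjusted p = 0.0126). Tnni1, the slow inhibitory subunit, read -6.47, -6.16 and -6.00 in the nodules, against -2.22 in the irradiated and -3.93 in the non-irradiated primary. It fell, with differences of -3.99 and -2.29 and with 2 nodules well above background, and its promoter above holds E-boxes CANNTG but no CAGCTG, MEF2 site or CArG box. Mybpc1, slow myosin-binding protein C, was not well above background in any nodule, at -7.73, -8.26 and -8.42, against 0.15 in the irradiated and -1.42 in the non-irradiated primary. The nodules were at least 111-fold lower than the irradiated primary (limma adjusted p = 0.00641) and at least 37.3-fold lower than the non-irradiated primary (adjusted p = 0.00786). Ankrd2, an ankyrin repeat protein of slow fibres that responds to stretch, read -4.58, -4.37 and -4.31 in the nodules, against 2.25 in the irradiated and 0.78 in the non-irradiated primary. It fell by 6.67 against the irradiated primary (SE 0.19, limma adjusted p = 0.00394) and fell by 5.20 against the non-irradiated primary (SE 0.19, adjusted p = 0.0074).

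Without nodule 2, Ankrd2 kept its call against the irradiated primary (adjusted p = 0.04997), and Tnnt1, Tnni1 and Mybpc1 had adjusted p of 0.0540, 0.0830 and 0.0540. Against the non-irradiated primary these 4 genes then had adjusted p from 0.0542 to 0.0814. Without nodule 3, Tnnt1 and Tnni1 lost that second call, with adjusted p of 0.0532 and 0.0557.

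The 3 slow fibre genes that did not pass were all highest in nodule 3 among the nodules. Tnnc1, the troponin C of slow and heart muscle, read -2.84, -1.96 and -0.40 in nodules 1, 2 and 3, against -0.59 in the irradiated and -0.85 in the non-irradiated primary. Nodule 3 was thus above both primaries for Tnnc1 (difference of the nodule mean from the irradiated primary -1.15, SE 0.93, adjusted p = 0.54). Mb, the oxygen carrier myoglobin, read -1.99, -2.04 and 0.14 in the nodules, against 0.82 in the irradiated and 0.050 in the non-irradiated primary. Car3, a carbonic anhydrase of slow fibres, which fat and liver also express, read -7.84, -4.59 and -2.82 in the nodules, against -1.40 in the irradiated and -2.49 in the non-irradiated primary. Their differences of -2.12 and -3.68 from the irradiated primary had standard errors of 0.94 and 1.92 and did not pass (adjusted p = 0.28 and 0.34). Tnnc1, Mb and Car3 had nodule SDs of 1.23, 1.24 and 2.55, where the median SD over all features tested was 0.162.

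Of the 5 measured sarcomere proteins that fibres of both kinds share, Acta1 fell against each primary, Actn2, Tcap and Klhl41 did not pass against either, and Myot, a Z-disc protein, was not well above background on any array. Acta1, the actin of the skeletal thin filament, read -5.02, -5.29 and -3.68 in nodules 1, 2 and 3, against 3.89 in the irradiated and 1.61 in the non-irradiated primary. It fell by 8.56 against the irradiated primary (SE 0.66, limma adjusted p = 0.0128) and fell by 6.28 against the non-irradiated primary (SE 0.66, adjusted p = 0.0132). Without nodule 2 its adjusted p was 0.0593 and 0.0634. The 3 that did not pass varied more among the nodules than Acta1 did. Tcap, the cap protein of titin at the Z-disc, read -3.40, -3.18 and 0.083 in the nodules, against 1.27 in the irradiated and 0.44 in the non-irradiated primary. Actn2, the actinin of all striated muscle, read -5.59, -6.24 and -3.26 in the nodules, against -1.51 in the irradiated and -2.17 in the non-irradiated primary. Klhl41, a kelch protein that stabilises nebulin, read -6.35, -6.27 and -4.41 in the nodules, against -0.61 in the irradiated and -2.25 in the non-irradiated primary. As with Acta1, nodule 3 was the highest nodule for all of these, and every nodule lay below both primaries. Klhl41 was closest to the threshold (difference -5.06 from the irradiated primary, SE 0.85, limma adjusted p = 0.0543), with 1 nodule well above background. It passed with normexp correction (adjusted p = 0.0163), without nodule 1 (0.00705) and without nodule 3 (0.0258).

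Cacna1s, the voltage sensor of the transverse tubule, was placed differently from the contractile genes. It read -2.59, -2.33 and -1.92 in nodules 1, 2 and 3, against -1.28 in the irradiated and -3.53 in the non-irradiated primary. The nodules thus lay between the primaries, and neither difference passed (-1.003, SE 0.30, limma adjusted p = 0.16 against the irradiated and 1.25, SE 0.30, adjusted p = 0.0527 against the non-irradiated primary).

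Among 5 muscle enzymes, Ckm, Pygm and Ampd1 fell against the irradiated primary and Eno3 and Pgam2 did not pass. Ckm, the creatine kinase that regenerates ATP, read -2.86, -3.99 and -1.27 in nodules 1, 2 and 3, against 4.16 in the irradiated and 1.42 in the non-irradiated primary. It fell by 6.87 against the irradiated primary (SE 1.03, limma adjusted p = 0.0455). Other scalings, no filter, the deposited matrix or a constant prior variance gave adjusted p from 0.0511 to 0.0829, and leaving out nodule 2 gave 0.0895. The difference of -4.13 from the non-irradiated primary did not pass (SE 1.03, adjusted p = 0.0556).

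Ampd1, the muscle AMP deaminase, read -5.23, -4.65 and -4.86 in the nodules, against 0.031 in the irradiated and -2.17 in the non-irradiated primary, and fell, with differences of -4.95 and -2.74 (limma adjusted p = 0.00799 and 0.0133). Pygm, the glycogen phosphorylase of muscle, read -3.51, -3.76 and -3.14 in the nodules, against 0.13 in the irradiated and -2.48 in the non-irradiated primary. It fell by 3.59 against the irradiated primary (SE 0.29, adjusted p = 0.0137), and the difference of -0.99 from the non-irradiated primary did not pass (adjusted p = 0.0806). Without nodule 2, Ampd1 and Pygm had adjusted p of 0.0540 and 0.0682 against the irradiated primary. Ampd1 also missed the threshold against the non-irradiated primary without nodule 2 (adjusted p = 0.0634) and without nodule 3 (0.0545). Pgam2, the muscle phosphoglycerate mutase, read -5.22, -5.11 and -2.45 in the nodules, against 1.00 in the irradiated and -1.55 in the non-irradiated primary, and passed neither test (adjusted p = 0.0938 and 0.18).

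Eno3, the muscle enolase, was the exception in direction. It read 4.73, 4.91 and 4.80 in nodules 1, 2 and 3, against 4.79 in the irradiated and 3.65 in the non-irradiated primary. Against the irradiated primary the difference was 0.024 (SE 0.13, limma adjusted p = 0.93), and against the non-irradiated primary Eno3 was the only member that rose, by 1.17 with all 3 nodules higher (SE 0.13, adjusted p = 0.0134). Without nodule 2 or nodule 3 that adjusted p was 0.0704 or 0.0527.

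Of the ubiquitin ligases that mark muscle proteins for breakdown, Trim63 fell and Fbxo32 did not pass. Trim63 read -5.51, -5.45 and -4.77 in nodules 1, 2 and 3, against -1.04 in the irradiated and -2.63 in the non-irradiated primary, and fell, with differences of -4.20 and -2.61 (limma adjusted p = 0.016 and 0.0192). Without nodule 2 these adjusted p were 0.0830 and 0.0797. Fbxo32 read -2.20, -3.23 and -3.43 in the nodules, against -2.29 in the irradiated and -1.53 in the non-irradiated primary. Nodule 1 thus overlapped the irradiated primary, and Fbxo32 was 1 of 2 members, with Atp2a1, whose level was lower in the irradiated than in the non-irradiated primary.

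Of the myogenic factors, which switch on muscle genes through E-boxes, Myog fell against each primary and Myod1 against the irradiated one. Myog, which drives terminal differentiation, read -3.54, -3.96 and -4.03 in nodules 1, 2 and 3, against -0.96 in the irradiated and -2.30 in the non-irradiated primary. It fell by 2.88 (SE 0.27, limma adjusted p = 0.0178) and fell by 1.55 (SE 0.27, adjusted p = 0.0275). Myod1, which commits cells to the muscle lineage, was well above background in the irradiated primary alone, with -8.54, -8.68 and -8.18 in the nodules, -5.14 in that primary and -7.61 in the non-irradiated one. The nodules were at least 2.83-fold lower than the irradiated primary (limma adjusted p = 0.0359), and that primary was at least 1.98-fold higher than the non-irradiated one. Between the nodules and the non-irradiated primary Myod1 did not pass (adjusted p = 0.22), with neither well above background. Without nodule 2, Myog and Myod1 had adjusted p of 0.0985 and 0.162 against the irradiated primary, and without nodule 3 0.0587 and 0.0810. The call of Myog against the non-irradiated primary was likewise lost, with adjusted p = 0.102 without nodule 2 and 0.0732 without nodule 3. With normexp correction Myod1 did not pass (adjusted p = 0.0756).

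Over all classes 33 of the 35 measured genes entered the test, and 11 of these entered only because a primary was bright, so the counts describe the genes and are not a test of the set. Of the 33, 21 fell, 0 rose and 12 did not pass against the irradiated primary, where 2.77% of all features fell and 0.905% rose. Of the 33, 18 fell, 1 rose and 14 did not pass against the non-irradiated primary, where 8.85% of all features fell and 9.74% rose. In a separate fit of the 16796 features well above background on all 5 arrays, 406 fell against the irradiated and 1529 against the non-irradiated primary. Among the 22 genes well above background on all 5 arrays, 15 fell against the irradiated primary, and 13 fell and 1 rose against the non-irradiated one. Without nodule 3, 16 and 10 of these 22 fell against the irradiated and the non-irradiated primary. Both comparisons share the 3 nodules. The counts of falls against the irradiated primary were 25, 7 and 24 without nodules 1, 2 and 3, and against the non-irradiated primary 24, 0 and 15. Without nodule 2, 25 and 24 of 33 still had an unadjusted limma p under 0.05 against the irradiated and the non-irradiated primary, and the smallest adjusted p of any feature was 0.04997 and 0.0542.

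Every nodule lay below the irradiated primary for 32 of the 35 measured genes, the exceptions being Tnnc1, Eno3 and Fbxo32, where 31.8% of all features tested did so. Every nodule lay below the non-irradiated primary for 31 of the 35, the exceptions being Tnnc1, Mb, Cacna1s and Eno3, where 36.8% of all features did so. Nodules 1 and 2 both lay below the irradiated primary for 33 of the 35 (34.6% of all features) and both below the non-irradiated primary for 33 of the 35 (38.4%). The irradiated primary was the highest array for 31 of the 35 genes, against 20.7% of all features. The highest array was the non-irradiated primary for Atp2a1 and Fbxo32, nodule 3 for Tnnc1 and nodule 2 for Eno3. Each of these counts of the 35 includes Myh1 and Myot, whose readings lay near background on every array. Neither was tested, whereas the shares are over tested features only.

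**Figure D2:**
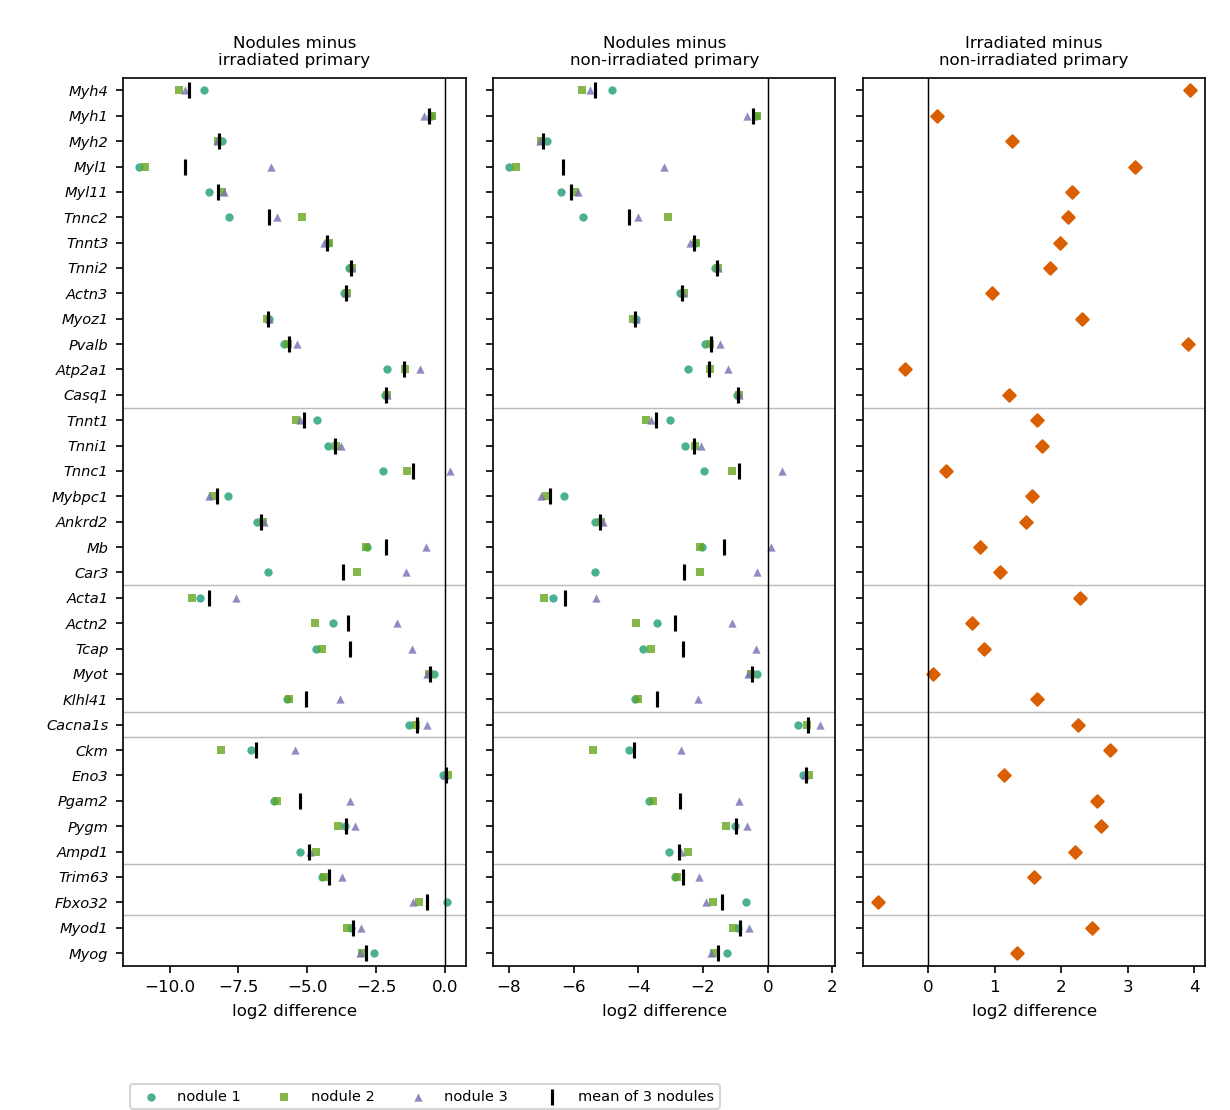
Log2 difference of each of the 35 measured genes, with the nodules minus the irradiated primary (left), the nodules minus the non-irradiated primary (middle) and the irradiated minus the non-irradiated primary (right). Points are single nodules or arrays, vertical bars are the mean of the 3 nodules, and the line at 0 marks no difference. Most points lie left of 0 in the panels of nodules and right of 0 in the panel of primaries, and the fast fibre genes at the top mostly show nodules lying on top of each other.

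The irradiated primary gave higher signals of most members than the non-irradiated primary, a difference between 1 array each that was not tested. Of 33 members well above background on either array, 26 were higher by 1 or more on the log2 scale and 0 were lower by as much. Myod1 is among the 26 by its measured values, though its bound above is under that size. Among 18434 such features of the whole array 9.28% were higher and 7.12% lower by that size. The count included 10 of 13 fast fibre genes (median 1.98), 5 of 7 slow fibre genes (median 1.48), 2 of 5 shared sarcomere genes (median 0.83) and all 5 enzymes (median 2.55), while all features had a median of 0.02. The fold was 15.3 for Myh4, 14.99 for Pvalb, 8.64 for Myl1 and 6.69 for Ckm, irradiated over non-irradiated. In the slow class it lay between 1.2 for Tnnc1 and 3.26 for Tnni1. Outside the members, Myh7 and Myl2, which slow fibres share with heart muscle, were at least 31.7-fold and at least 10.7-fold higher in the irradiated primary. Neither was well above background in the non-irradiated one. Whether the fast and slow classes differ was not tested. The 99 other muscle genes measured, described below, were less uniform, with 48 higher and 7 lower by 1 or more in the irradiated primary (median 0.80). Dmd, Cav3 and Chrne were among the 7. These counts include genes near background on both arrays.

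Markers of other tissues around a tumour were set beside this. A list's sum below is in multiples of the 75th percentile signal of the array. Adipoq, the hormone of fat cells, was not well above background on any array. Fabp4 and Cfd, which fat cells also express and which were named after their values were seen, were at least 3.51-fold and at least 1.59-fold higher in the irradiated primary, being not well above background in the non-irradiated one. The fat list summed to 0.151 in the irradiated and 0.0810 in the non-irradiated primary. Krt5, a keratin of basal skin cells, was not well above background in either primary, and Krt14, its partner, read -4.98 in the irradiated, against -5.60 in the non-irradiated primary. The skin list summed to 3.19 in the irradiated and 2.92 in the non-irradiated primary, most of it from Tp63, a factor of basal epithelia, which read 1.57 and 1.42. The smooth muscle list summed to 21.3 and 18.4, and 5 of its 14 genes were higher in the irradiated primary by 1 or more, against 9.28% of all features. Among the 5 were Des and Casq2, which are also in the lists of other muscle genes below. The part of these tissues in the muscle differences was not tested.

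**Figure D3:**
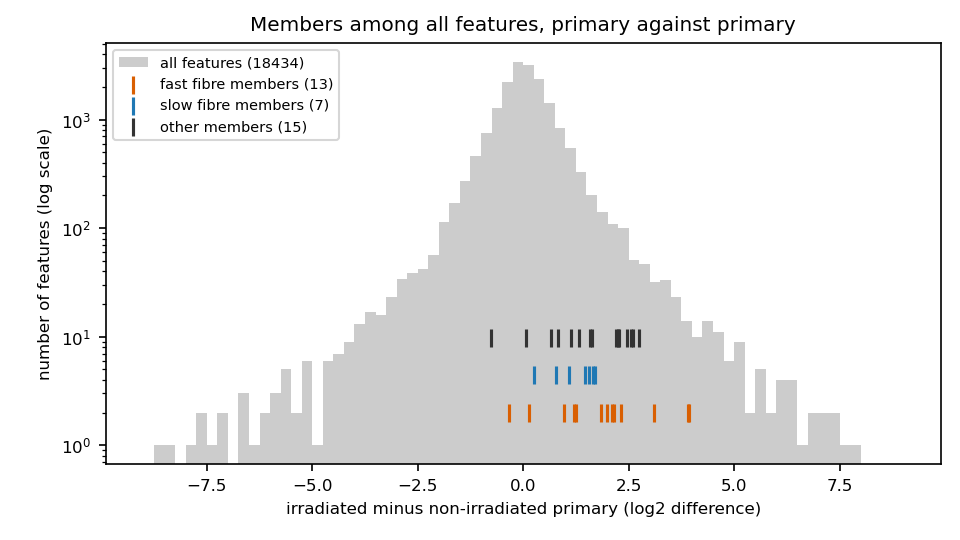
Distribution of the log2 difference between the irradiated and the non-irradiated primary over 18434 features (grey bars, counts on a log axis), with short ticks for the 13 fast fibre, 7 slow fibre and 15 other members measured. The ticks lie mostly between 0 and 4, right of the peak of the distribution, and the fast fibre ticks reach furthest at 3.94 for Myh4.

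The nodules differed among themselves in some members and hardly in others. In the fast class the median nodule SD was 0.166, close to the 0.162 of all features, and in the slow and shared sarcomere classes it was 0.397 and 1.099. Nodule 3 was at least 1 above both other nodules for 10 of 35 members, where 0.555% of all features were so placed. These were the fast light chain Myl1, the slow genes Tnnc1, Mb and Car3, the shared Acta1, Actn2, Tcap and Klhl41, and the enzymes Ckm and Pgam2, a set picked by its values. Nodule 1 was so placed for Fbxo32 only, against 2.07% of all features, and nodule 2 for 0 members, against 0.339%. With normexp correction the count for nodule 3 was 8.

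Nodule 3 also carried heart muscle transcripts. Myh6, the heavy chain of the atria and of the adult rodent heart, read -2.84, -3.03 and 3.87 in nodules 1, 2 and 3, against -0.34 in the irradiated and -5.01 in the non-irradiated primary. Myh7, the heavy chain shared by heart and slow fibres, read -3.21, -3.90 and 2.60, against -0.70 in the irradiated and -5.69 in the non-irradiated primary. Nppa, the atrial natriuretic peptide, was well above background in nodule 3 alone at 2.63, and Myl7, the atrial light chain, read -4.75, -3.22 and 3.37 in the nodules, against -6.32 and -6.29 in the irradiated and non-irradiated primaries. Myl2, the light chain of ventricle and slow fibres, was well above background in the irradiated primary alone, at -2.70.

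Of 26 heart genes measured, 13 were at least 1 higher in nodule 3 than in both other nodules. The list summed to 8.33, 7.63 and 60.6 in nodules 1, 2 and 3, against 13.9 in the irradiated and 9.62 in the non-irradiated primary. The lung list summed to 72.1, 21.1 and 0.579 in the nodules, against 0.768 in the irradiated and 1.94 in the non-irradiated primary. Of its 14 genes 10 were at least 1 higher in nodule 1 than in both other nodules, against 2.07% of all features tested. In the smooth muscle list 7 of 14 genes were so placed in nodule 1, among them Acta2, the smooth muscle actin, with 0.0031 in nodule 1, -2.77 in nodule 2 and -3.25 in nodule 3. The part of heart or lung tissue in the nodule differences of the members was not tested.

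**Figure D4:**
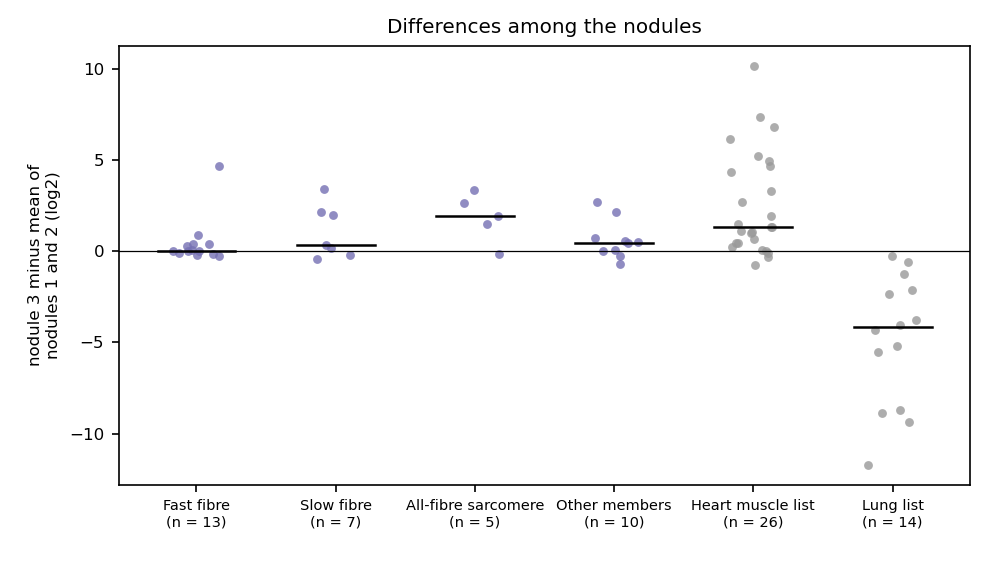
Nodule 3 minus the mean of nodules 1 and 2 (log2, vertical) for each gene of the fast fibre, slow fibre, shared sarcomere and other members, and for the heart and lung lists in grey, with the median as a bar. Most fast fibre genes lie near 0 with Myl1 at 4.68, several slow and shared sarcomere genes lie between 1 and 4, heart genes reach 10.2 and lung genes reach -11.7.

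Other muscle genes outside the 41 were read from lists of contractile, excitation, metabolic and myogenic genes. Of 125 listed, 99 were measured and 85 tested, of which 17 fell and 2 rose against the irradiated primary, and 20 fell and 6 rose against the non-irradiated primary. Of all features 2.77% were lower and 0.905% higher in the nodules than in the irradiated primary, and 8.85% and 9.74% than in the non-irradiated one. Thus 66 and 59 did not pass, and the median differences of the 99 were -1.02 and -0.48. Some of the 85, Myh8 and Sypl2 among them, entered only because a primary was bright, so these counts are not a test of the set. Myh8, the perinatal heavy chain, had the largest difference, with -7.24, -6.80 and -3.06 in nodules 1, 2 and 3, against 5.77 in the irradiated and 3.34 in the non-irradiated primary. It fell by 11.47 against the irradiated primary (SE 1.72, limma adjusted p = 0.0458) and fell by 9.04 against the non-irradiated primary (SE 1.72, adjusted p = 0.0322), with 1 nodule well above background. Myh3, the embryonic heavy chain, read between -6.40 and -6.00 in the nodules, against -2.58 in the irradiated and -2.25 in the non-irradiated primary, and fell, with differences of -3.59 and -3.92 (limma adjusted p = 0.0132 and 0.00936). These developmental heavy chains and the adult Myh4 and Myh2 were all well above background in both primaries.

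Sypl2, a membrane protein of the triad, was not well above background in any nodule, and the nodules were at least 40.8-fold lower than the irradiated primary (limma adjusted p = 0.0112). Ppp1r27, a regulatory subunit of a protein phosphatase, and Cacng1, a subunit of the muscle calcium channel, fell, with differences of -5.86 and -5.79 from the irradiated primary and with 2 nodules well above background each. Des, the intermediate filament desmin, read -2.99, -2.67 and -2.34 in nodules 1, 2 and 3, against 1.73 in the irradiated and -0.25 in the non-irradiated primary, and fell by 4.40 (limma adjusted p = 0.0091). Trdn, a protein of the calcium release complex, Xirp2, an actin-binding protein, and Smpx, a small muscle protein, had differences of -6.91, -6.87 and -5.79 that did not pass (adjusted p = 0.239, 0.0618 and 0.327), with 1 nodule well above background each. Both genes that rose against the irradiated primary were named after their values were seen. Klhl38 read -3.08, -3.75 and -3.43 in the nodules, against -8.28 in the irradiated primary, where it was not well above background, and -5.69 in the non-irradiated primary. Casq2, the calcium store protein of heart and slow fibres, read -1.09, -1.55 and -1.26, against -3.51 in the irradiated primary and -5.10 in the non-irradiated primary, where it was not well above background. Pax3, a factor of muscle precursors and of neural crest, also named after its values were seen, read 3.44, 3.25 and 3.11 in the nodules, against 6.25 in the irradiated and 5.11 in the non-irradiated primary. It fell by 2.98 (limma adjusted p = 0.00741) and fell by 1.84 (adjusted p = 0.0115) against these primaries. Pax7, the factor of satellite cells, Myf6, a late myogenic factor, and Chrng, the fetal acetylcholine receptor subunit, were not well above background on any array, and Myf5, an early myogenic factor, read between -3.34 and -3.01 in the nodules, against -3.30 in the irradiated and -3.12 in the non-irradiated primary.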

How the data were processed

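RNA of 5 tumours was measured on 1 array each. The deposited intensity values are signals per spot that Agilent Feature Extraction 11.0, per the submitters' processing notes, made from the scans. Flags deposited with them, other values of 0 or 1 per the file headers, mark spots as outliers, as saturated or as well above background. The authors also deposited log2 values of 18502 probes in a matrix, whose making is not given in the sources used here. Its column medians were all 9.74 and each column correlated at 0.9996 or more with its own array, so its scale and direction match the signals, while its normalization stays unknown.

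Of 58717 gene spots per array, outlier spots were left out, and the log2 signals of a probe's spots were averaged and scaled by subtracting the 75th percentile of the array. RefSeq accessions named 18354 of 30367 probes, with 1 probe, the brightest, per gene. A feature was tested if every array of some group showed it well above background, which left 18903. The fit of 3 group means used limma 3.58.1 (R 4.3.3), with eBayes moderation along an intensity trend and a threshold of 0.05 on p adjusted over all features by Benjamini-Hochberg. The residual degrees of freedom were 2, from the nodules alone, a spread that each lone primary was assumed to share. The number of arrays limits the precision. Between the primaries, log2 differences of 1 or more were counted. Alternatives were other scalings, normexp background correction with offset 50, other filters, the mean over probes, the deposited matrix, a constant prior variance and leaving out each nodule. The planned normexp on spot and background signals was run on median signals. The members, the lists and the rule for named genes (all members, the largest differences in the other muscle lists, and set markers of other tissues) were chosen with earlier results of these data known.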

Additional observations from a re-analysis of the deposited data

How the results depend on the processing

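Each primary is 1 array and all p-values rest on 3 nodules, so calls near the threshold moved with the nodules that were left out. The count of members lower than the irradiated primary, 21 of 33, ranged over 7 to 25 when a nodule was left out, and was 13 of the 22 members in the deposited matrix, which holds fewer probes. The count lower than the non-irradiated primary, 18 of 33, ranged over 0 to 24 by limma when a nodule was left out. With nodule 2 left out, where that count was 0, 24 of 33 members had an unadjusted p under 0.05. The features of the whole array lower than the irradiated primary numbered 524, and 12 to 1852 with a nodule left out, 321 with median scaling and 323 with a constant prior variance. Those lower than the non-irradiated primary numbered 1673, and 0 to 3084 with a nodule left out.

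With normexp correction the median difference from the irradiated primary was -3.98 in the fast fibre class and -1.99 in the slow fibre class, and the slow fibre median against the non-irradiated primary was -1.18. The cause was not tested. With a nodule left out, the slow fibre medians ranged from -4.81 to -3.86 against the irradiated and from -3.39 to -2.16 against the non-irradiated primary. Eno3 against the irradiated primary, at 0.024, ranged from -0.023 without nodule 2 (adjusted p = 0.968) to 0.066 without nodule 1 when a nodule was left out, so its sign is not settled.

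Of 21 calls against the irradiated primary, 7 were kept in every setting run, and 18 in every setting other than leaving out a nodule. Tnnc2 and Ckm lost theirs in 5 such settings each and Myod1 in 1. Of 19 calls against the non-irradiated primary, 18 were kept in every setting other than leaving out a nodule, and Tnnc2 was lost in 5 of those. No paired analysis was possible because each primary is 1 array, so the groups share fewer than 2 replicate numbers. Signals near background limit Myh4, Myh2, Mybpc1, Myod1 and Sypl2 to bounds on the main scale, which are not strict minima. Myl1, Klhl41 and Myh8 were well above background in 1 nodule only.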
